A study of Equus caballus with 4 samples.

Results

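Chemokines are small secreted proteins that draw leukocytes into tissue, and 5 of them were followed here in the equine sarcoid, a fibroblastic skin tumour that invades locally, and in distant skin from the tumour-bearing animals. The genes were CXCL9, CXCL10, CCL5, CCL2 and CXCL8, and they were taken as all non-control probes that carry a RefSeq transcript of one of them. All 5 genes were found, with 21 probes out of 43603 on the array; 1031 genes in all could be named through RefSeq. The probes fell as 2 for CXCL9, 5 for CXCL10, 2 for CCL5, 6 for CCL2 and 6 for CXCL8, and because 1 probe of CXCL10 and 1 of CXCL8 were each printed on 5 spots they filled 29 spots of an array.

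Each of 4 horses gave 1 two-colour array, on which the horse's sarcoid RNA was labelled with Cy3 and its distant skin RNA with Cy5. The labels give no age, sex, breed, sarcoid type or treatment of the horses, and with 0 dye-swapped arrays, tissue and dye cannot be told apart. Both samples were whole tissue, in which more cells of a type and more RNA per cell cannot be told apart. Marker genes moved with the tissue labels: LUM (lumican, a proteoglycan of fibroblast matrix) had a log2 ratio of 4.18 ± 1.14 (SD, n = 4) in sarcoid over skin, and KRT15 (a keratin of basal keratinocytes) had -5.13 ± 0.10. Between 67.2% and 78.4% of probe spots in the sarcoid channel, and between 74.8% and 80.7% in the skin channel, were well above background, and 0 spots were saturated.

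As background, CXCL9 and CXCL10 are induced by interferons, bind the receptor CXCR3 and attract activated T cells and natural killer cells. CCL5, made by T cells among others, also attracts T cells and monocytes, whereas CCL2 attracts monocytes through CCR2. CXCL8, also called interleukin 8, attracts neutrophils through CXCR1 and CXCR2, and keratinocytes and fibroblasts can release it on injury. In the RefSeq annotation of the horse (assembly TB-T2T), CXCL10 lies between CXCL11 and CXCL9, so the 3 CXCR3 ligands are neighbours.

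Levels are given below as processed signal, the scanner software's background-subtracted and dye-normalized intensity in linear scanner units, averaged over all spots of a probe. Tested differences are log2 ratios of sarcoid over skin from the spot medians after background correction and normalization (a positive value means higher in sarcoid), and each gene is represented by its brightest probe measured on all arrays. Because 50 units are added to both channels before the logarithm, these log2 ratios understate the differences of dim probes, and the log2 ratio of the processed signals is given beside them where it differs much. Levels of different genes come from different probes and are not set against each other.

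The processed sarcoid and skin signals of CXCL9 did not overlap, on either of its probes. Its processed signal in the sarcoids was 1036 in horse 1, 109 in horse 2, 100.7 in horse 3 and 574 in horse 4, against 49.9, 10.8, 28.5 and 84.6 in the skin of the same horses. The lowest sarcoid thus lay above the highest skin, while the sarcoids themselves differed by 10.3-fold between the highest and the lowest. Within a horse the processed signal was 20.7-fold higher in sarcoid in horse 1, 3.53-fold in horse 3 and 6.79-fold in horse 4. The skin signal of horse 2 was not well above background, so no fold is given for that horse.

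The log2 ratios of CXCL9 were 2.42, 0.93, 0.63 and 1.72 in horses 1 to 4. Their mean was 1.42 ± 0.81 (SD, n = 4; 95% confidence interval 0.63 to 2.22), and CXCL9 was the 1 gene of the 5 that passed the test (limma adjusted p = 0.040, higher in 4 of 4 horses). Across all 19428 targets tested (genes, or transcripts without a gene name), 15.5% passed, 5.65% higher and 9.82% lower in sarcoid. The processed sarcoid and skin signals did not overlap for 17.1% of targets, and for 7.48% every sarcoid lay above every skin sample. The call was lost when any of horses 1, 2 and 4 was left out (limma adjusted p = 0.0875, 0.0795 and 0.121) and when the background was fitted on all spots, with the marked spots left out afterwards (log2 ratio 1.06, limma adjusted p = 0.339). On the processed signals the log2 ratio was 3.08 ± 1.07 (limma adjusted p = 0.00499), and it stayed past the threshold without each horse in turn (highest adjusted p = 0.0195). The value of 3.08 includes the ratio of horse 2, whose skin signal was not well above background. Without that horse it was 2.99 (limma adjusted p = 0.0193).

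The other CXCL9 probe was dimmer and was well above background on 4 of 4 arrays in the sarcoid channel and on 0 of 4 in the skin channel. Its log2 ratios were 1.18, 0.43, 0.31 and 0.69 in horses 1 to 4, in the same order of horses as the brighter probe. On the mean over the 4 horses it was 1.57-fold higher in the sarcoids, which did not pass (limma adjusted p over all probes = 0.0627). Horses 2 and 3 lay below this mean. As a floor for the skin level, the dimmest signal counted as well above background on each array was set. The probe's own signal was the higher on every array, so 1.57-fold is the measured ratio and no separate bound. On the processed signals the log2 ratio of this probe was 3.36 (limma adjusted p over all probes = 0.00183). That value rests on skin signals that were not well above background on any array. Its mean log2 intensity after scaling between arrays was 6.74 in sarcoid and 6.09 in skin. Of the 20 chemokine probes with a value, 1 passed over all probes, the brighter one of CXCL9, against 17.4% of all probes in either direction and 6.53% higher in sarcoid.

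**Figure D1:**
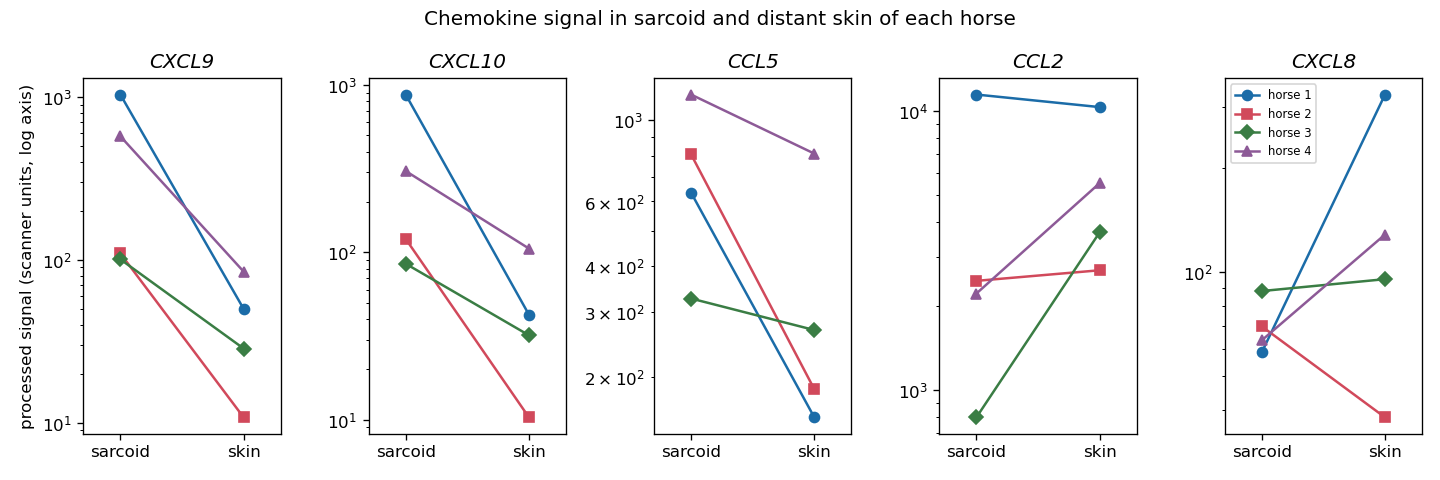
Processed signal (scanner units, log axes that differ between panels) of the brightest probe of each chemokine in the sarcoid (left) and distant skin (right) of horses 1 to 4, joined by horse. The lines of CXCL9, CXCL10 and CCL5 run down from sarcoid to skin in all 4 horses, those of CCL2 run down in horse 1 alone, and those of CXCL8 in horse 2 alone.

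On the brightest probe of each gene, though not on every other probe, CXCL10 showed the same order of horses as CXCL9 in both tissues. Its processed signal in the sarcoids was 876 in horse 1, 120 in horse 2, 85.6 in horse 3 and 306 in horse 4, against 42.4, 10.3, 32.0 and 105 in the skin. On this signal the sarcoid was the higher tissue in every horse, by 20.6-fold in horse 1, 2.67-fold in horse 3 and 2.90-fold in horse 4. The skin signal of horse 2 was not well above background. On this brightest probe the groups overlapped, since the skin of horse 4 lay above the sarcoid of horse 3. They also overlapped on 2 other probes, and on the remaining 2 every sarcoid lay above every skin sample (lowest sarcoid 65.4 and highest skin 61.5 on one, 50.6 and 34.9 on the other).

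The log2 ratios of CXCL10 were 2.35, 1.00, 0.37 and 0.90, with a mean of 1.15 ± 0.84 (SD, n = 4; 95% confidence interval 0.32 to 1.99). The difference did not pass the test (limma adjusted p = 0.0765, above 0 in 4 of 4 horses). All 5 probes were above 0 in all 4 horses, with means between 0.76 and 1.15, and 0 of the 5 passed over all probes (limma adjusted p between 0.0685 and 0.114), although each had an unadjusted p under 0.05. On the processed signals CXCL10 passed, with a log2 ratio of 2.72 ± 1.47 (limma adjusted p = 0.0188). That value includes the ratio of horse 2, whose skin signal was not well above background. The call was lost without horse 1 (limma adjusted p = 0.0622) and without horse 2 (0.0600). Without horse 1 the mean log2 ratio as tested was 0.76. On the processed signals all 5 CXCL10 probes and both CXCL9 probes passed. So did 19.6% of all targets in either direction, with 9.43% of targets and 10.1% of probes higher in sarcoid. In skin the brightest CXCL10 probe was well above background on 3 of 4 arrays and the others on 2, 1, 2 and 1. The dimmer CXCL9 probe was so on 0 of 4. All but the brightest probe of each gene were kept through the sarcoid channel. Their passing rests in part on dim skin signals and is no independent support. Within a horse, 4 or 5 spots of the repeated CXCL10 probe had an SD of the log2 processed ratio between 0.08 and 0.71, against an SD of 1.47 between horses for the brightest probe.

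CXCL11, next to CXCL10, and CXCL6, next to CXCL8 in the annotation, were dim in skin. CXCL11, the other CXCR3 ligand, had log2 ratios of 0.65, 0.32, 0.51 and 0.39 in horses 1 to 4 (mean 0.47 ± 0.14; limma adjusted p = 0.054) and was well above background on 1 of 4 skin arrays. CXCL6, which acts on the receptors of CXCL8, had a mean of 0.37 ± 0.28 (limma adjusted p = 0.161), also with 1 of 4 skin arrays. Both passed on the processed signals, CXCL11 with a log2 ratio of 1.98 ± 0.40 (limma adjusted p = 0.00323) and CXCL6 with 1.71 ± 0.84 (0.0203).

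**Figure D2:**
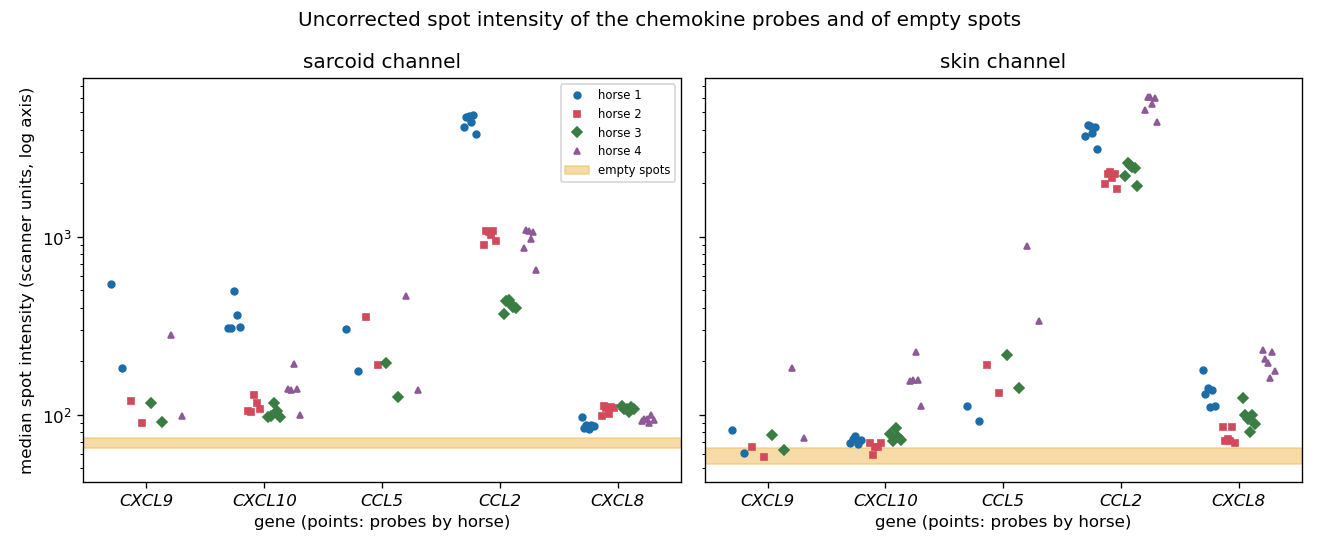
Uncorrected median spot intensity (scanner units, log axis) of every chemokine probe, by gene and horse, in the sarcoid (left) and skin (right) channels, with a band from the lowest median to the highest 95th percentile of the empty control spots over the 4 arrays. In skin, some CXCL9 and CXCL10 probes lie within the band drawn over all arrays, although each exceeds the empty spots of its own array, and CCL2 probes lie far above it in both channels.

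The chemokine probes were also set against the empty spots of their arrays. The empty (negative control) spots had medians of 65 to 71 in the sarcoid channel and 53 to 59.5 in the skin channel, which was 42 to 48 units above the local background in the sarcoid channel and 7 to 12.5 units above it in the skin channel. Every chemokine probe exceeded the 95th percentile of the empty spots of its own array in both channels. In skin, however, the CXCL9 probes exceeded the median of the empty spots by as little as 5 units and the CXCL10 probes by as little as 6 units, against at least 19.5 and 26 units in sarcoid. The skin of horse 4 was brighter. Without dye normalization the brighter CXCL9 probe had 124.5 units there and 214 in that horse's sarcoid, against 54 and 46 in the sarcoids of horses 2 and 3. On this measure the tissues overlapped. The brightest CXCL10 probe had 166 units in the skin of horse 4 and 127 in its sarcoid, and the sarcoid was higher in the other horses. These unscaled intensities also carry the brightness of each whole channel. On the array of horse 4 the median probe spot was 236 in the skin channel and 113.5 in the sarcoid channel. In horse 1 these medians were 162 and 187. With the median of the empty spots taken as the background and no constant added, the log2 ratio was 2.28 for CXCL9 (limma adjusted p = 0.00642) and 2.01 for CXCL10 (0.0241). That setting was chosen after the data were seen.

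CCL5 was higher in the sarcoids of horses 1 and 2 and differed less between the tissues in horses 3 and 4. Its processed signal in the sarcoids was 634, 807, 326 and 1174 in horses 1 to 4, against 155, 185, 268 and 810 in the skin. The groups overlapped, because the skin of horse 4 exceeded the sarcoids of horses 1, 2 and 3. Within a horse the processed signal was 4.10-fold higher in sarcoid in horse 1, 4.37-fold in horse 2, 1.22-fold in horse 3 and 1.45-fold in horse 4. Without dye normalization, as spot intensity above the empty spots, skin was the higher in horses 3 (162.5 against 123.5) and 4 (831.5 against 400.5). The sarcoid stayed higher in horses 1 (239 against 59) and 2 (290 against 136.5).

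The log2 ratios of CCL5 were 1.11, 1.44, 0.00 and 0.31, with a mean of 0.72 ± 0.67 (SD, n = 4; 95% confidence interval 0.04 to 1.40), which did not pass the test (limma adjusted p = 0.143; unadjusted p = 0.042). Its dimmer probe had 0.54, 0.87, -0.09 and -0.18 (mean 0.29 ± 0.50; adjusted p over all probes = 0.415), so the 2 probes differed in sign in horses 3 and 4. The gene's log2 ratio on the processed signals was 1.25 ± 0.97 (limma adjusted p = 0.0725). Without horse 2 the mean was 0.48, and with the background fitted on all spots 0.46.

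CD2 and KLRD1, markers of T and natural killer cells, had their highest ratios in horses 1 and 2, where the CCL5 ratios were also highest. CD2, an adhesion molecule of T and natural killer cells, had log2 ratios of 1.13, 1.20, -0.13 and 0.24 in horses 1 to 4, and KLRD1, a natural killer cell receptor subunit, had 0.85, 1.06, 0.19 and 0.61. None of the 3 measured genes of that list passed the test in limma (unadjusted p under 0.05 for KLRD1 alone), 2 were above 0, and the list median was 0.61 against 0.00 over all targets. The third, GZMB (granzyme B), had -1.35, 2.78, -2.16 and -0.49. The summed processed signal of the 3 genes ranged from 873 to 12538 in sarcoids and from 1777 to 2945 in skin. Some genes of other lists also had their highest ratios in horses 1 and 2. The adhesion gene VCAM1 had 3.25, 3.33, 1.84 and 2.04 in horses 1 to 4, and the chemokine CXCL12 had 1.28, 1.66, -0.93 and 0.55. The part of T and natural killer cells in the CCL5 result was not tested.

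CCL2 was lower in the sarcoids of horses 3 and 4 and near equal to skin in horses 1 and 2. Its processed signal in the sarcoids was 11439 in horse 1, 2462 in horse 2, 799 in horse 3 and 2218 in horse 4, against 10314, 2687, 3675 and 5513 in the skin. The sarcoid had 1.11 times the skin signal in horse 1, 0.916 times in horse 2, 0.217 times in horse 3 and 0.402 times in horse 4. On the processed signal both tissues of horse 1 stood above those of the other horses. As spot intensity above the empty spots, without dye normalization, the skin of horse 4 (6066) was instead above that of horse 1 (4203). The whole skin channel was also brighter on the array of horse 4 (median spot 236) than on that of horse 1 (162).

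The log2 ratios of CCL2 were 0.16, -0.20, -2.18 and -1.33, with a mean of -0.89 ± 1.07 (SD, n = 4; 95% confidence interval -1.93 to 0.15), and the difference did not pass the test (limma adjusted p = 0.215). The probes of CCL2 kept close together within a horse. All 6 gave between 0.16 and 0.28 in horse 1 and between -0.29 and -0.13 in horse 2, and the 5 used in horses 3 and 4 gave between -2.20 and -1.92 and between -1.59 and -1.33. The sixth probe was marked as a background outlier in horses 3 and 4, and its fit rests on horses 1 and 2. On the log2 ratio of the processed signals the SD between horses was 1.09, against at most 0.13 between spots within a horse. Without horse 3 the mean of CCL2 was -0.46, and with the background fitted on all spots -0.52.

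**Figure D3:**
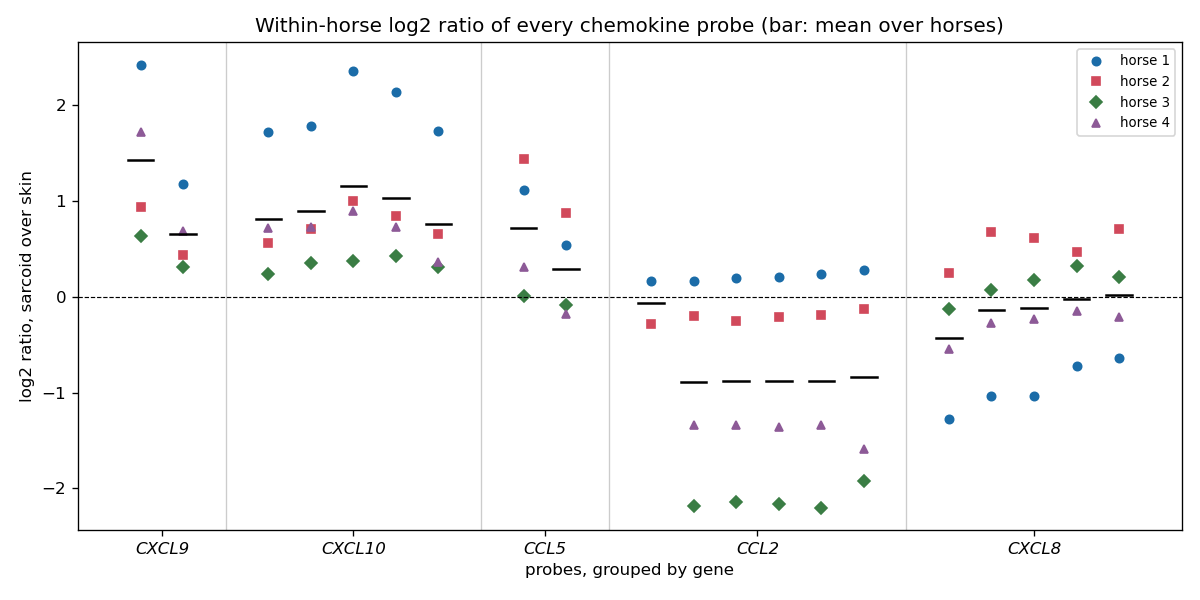
Log2 ratio of sarcoid over skin for each of the 20 chemokine probes with a value, grouped by gene; points are horses 1 to 4 and the bar is the mean. All points of CXCL9 and CXCL10 lie above 0, the CCL2 probes separate by horse between 0.28 and -2.20, and the CXCL8 points lie on both sides of 0.

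CXCL8 was dim in both tissues and differed in opposite directions between horses. The processed signal of its brightest probe in the sarcoids was 58.6, 69.7, 88.1 and 63.5 in horses 1 to 4, against 325, 38.1, 95.3 and 128 in the skin. The skin samples varied by 8.53-fold from lowest to highest, and all 4 sarcoids lay within the range of the skin samples. Horse 1 had the highest skin and lowest sarcoid processed signal. As spot intensity above the empty spots, both extremes instead lay in horse 4 (26.6 in sarcoid and 170.2 in skin, against 31.6 and 125.7 in horse 1). The array of horse 4 also had the highest median spot in the skin channel (236) and the lowest in the sarcoid channel (113.5).

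The log2 ratios of CXCL8 were -1.28, 0.25, -0.13 and -0.54, with a mean of -0.43 ± 0.65 (SD, n = 4; 95% confidence interval -1.09 to 0.24; limma adjusted p = 0.339). Of the 5 probes with values, 0 were above 0 in horses 1 and 4, 5 in horse 2 and 4 in horse 3. Probe means ranged from -0.43 to 0.01, and adjusted p over all probes from 0.325 to 0.979. The sixth probe was marked as a background outlier on all arrays and has no ratio, and its processed signals were 30.8, 81.9, 76.6 and 77.4 in sarcoid, against 187, 30.7, 52.1 and 105 in skin. The gene's mean log2 ratio was -0.14 without horse 1 or with its probes averaged, -0.65 without horse 2 and -0.68 on the processed signals, with 0 of these passing. No gene of the neutrophil marker list could be named on the array.

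On the processed signals of the brightest probes, horse 3 had the lowest sarcoid signal of the 4 horses for CXCL9, CXCL10, CCL5 and CCL2. On these probes horse 2 had the lowest skin signal for CXCL9, CXCL10, CCL2 and CXCL8. Horse 1 had the highest processed sarcoid signal for CXCL9, CXCL10 and CCL2. An exact sign-flip permutation test over the 4 horses, two-sided, gave p = 0.125 for CXCL9, CXCL10 and CCL5, the smallest that 4 pairs allow, and p = 0.25 for CCL2 and 0.375 for CXCL8. In such a design that test cannot reach 0.05.

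Among the other CC chemokines, related genes whose probes may share signal, 4 of 24 listed were measured and 0 passed in limma (unadjusted p under 0.05 for CCL13, CCL11 and CCL3). CCL13, a monocyte chemoattractant related to CCL2, had 2.51, -0.01, 2.17 and 2.60 in horses 1 to 4 (mean 1.82 ± 1.23; limma adjusted p = 0.0585). CCL11, or eotaxin, lay between -2.32 and -0.55 (mean -1.19 ± 0.78; limma adjusted p = 0.0593). CCL3, a macrophage inflammatory protein, had a mean of 0.88 ± 0.70 and CCL8, another monocyte chemoattractant, 0.43 ± 0.82. The 3 probes of CCL8 ranged from -0.19 to 0.43. The list median was 0.65. CCL13 (log2 ratio 1.86, limma adjusted p = 0.0366) and CCL3 (1.29, 0.0473) passed on the processed signals and CCL11 (-1.27, 0.0856) did not.

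All 3 measured of 13 other CXC chemokines were above 0 and 0 passed (unadjusted p under 0.05 for CXCL11 alone); the third was CXCL12, a stromal ligand of CXCR4, with 1.28, 1.66, -0.93 and 0.55 (mean 0.64 ± 1.14) and a list median of 0.47. Receptors were sparsely covered. CCR2, the receptor of CCL2, was the 1 measured receptor of the members out of 10 listed, with a log2 ratio of -0.06 ± 0.09 (limma adjusted p = 0.749) and a signal well above background on 1 of 4 sarcoid and 3 of 4 skin arrays. ACKR3, a scavenger of CXCL12, was the 1 measured of 12 other receptors, at 0.38 ± 0.56.

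**Figure D4:**
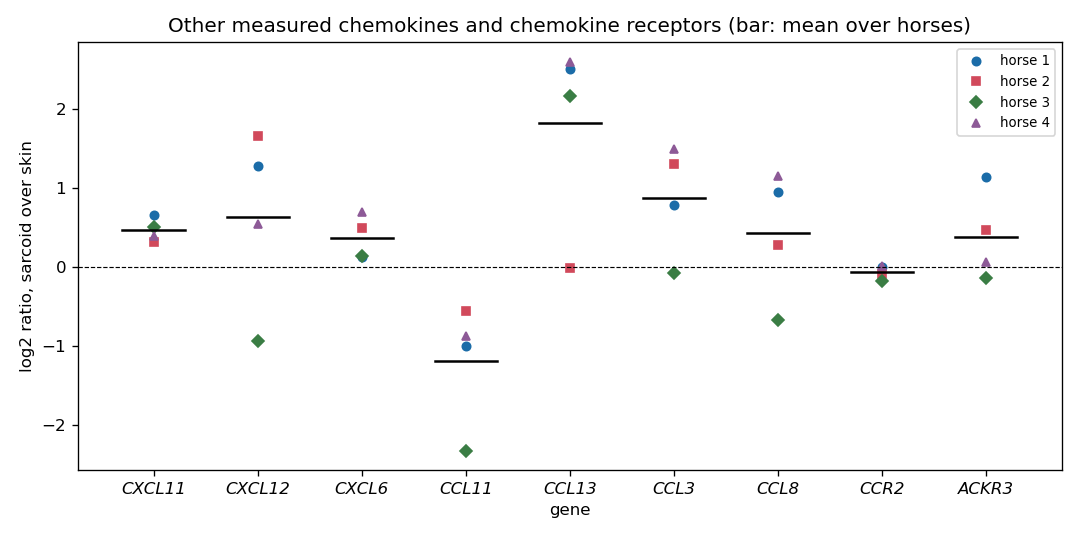
Log2 ratio of sarcoid over skin for the other measured chemokines and receptors; points are horses 1 to 4 and the bar is the mean. CCL13 is above 2 in 3 horses and near 0 in horse 2, CCL11 is below 0 in all 4, and CCR2 lies near 0.

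Genes that interferons induce and genes of the interferon gamma pathway were counted by list, beside 5.65% of all targets higher and 9.82% lower in sarcoid. Of 6 measured interferon-stimulated genes out of 19 listed, 3 were higher and 0 lower, with a list median of 0.83. The 3 were SAMD9 at 1.22 ± 0.31, OAS1 at 1.01 ± 0.56 and EIF2AK2 at 0.69 ± 0.30, all with antiviral roles. The 3 probes of SAMD9 ranged from 0.37 to 1.22. IFNG, the interferon gamma gene, was at 0.04 ± 0.10 and was well above background on 2 of 4 sarcoid and 3 of 4 skin arrays; it and IL12A were the 2 measured of 18 genes of the interferon gamma list, and neither passed in limma (unadjusted p = 0.734 and 0.521), with a list median of -0.02.

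In the list of interleukin 1, tumour necrosis factor and Toll-like receptor genes 10 of 21 were measured, 0 were higher and 2 lower (9.82% of all targets were lower), with a median of -0.29, and 8 did not pass. The 2 lower genes were inhibitors of interleukin 1: IL1RN, its receptor antagonist, at -2.20 ± 0.44 (its 8 probes ranged from -2.20 to -0.14), and IL1R2, its decoy receptor, at -5.81 ± 0.23 in the 2 horses with a value. IL1A, a ligand, exceeded background clearly in 0 of 4 sarcoids and 4 of 4 skin samples and did not pass (limma adjusted p = 0.0747), but passed on the processed signals (0.00615). TNF was at -0.28 ± 0.71.

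Myeloid and vascular markers were also read beside the members. Their counts stand beside the same shares of all targets, 5.65% higher and 9.82% lower. Of 4 measured macrophage and dendritic cell genes CSF1R, the receptor of colony stimulating factor 1, was higher (1.24 ± 0.51), 3 did not pass, and all 4 were above 0 with a median of 0.74. CD14, a monocyte coreceptor, had 2.15, 1.68, -0.41 and 1.08 in horses 1 to 4. Their summed processed signal ranged from 13064 to 33055 in sarcoids and from 7245 to 15161 in skin. Of 5 measured adhesion genes VCAM1, which binds leukocyte integrins on endothelium, was higher (2.62 ± 0.79), 4 did not pass and the median was 0.27. The mast cell list had 0 of 3 called (median -0.55) and the endothelial list 0 of 2 (median 0.10), and their unadjusted p were all above 0.05. Both measured fibroblast genes were higher, with a median of 2.67, the 1 keratinocyte gene was lower, and both melanocyte genes were lower, TYRP1 of them with 0 of 4 sarcoid arrays well above background. The part of these cells in the chemokine differences was not tested.

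Likeness of pattern was read as Pearson's r over the 8 scaled log2 channel values, which come from 4 arrays in pairs and are given as a description. CXCL9 and CXCL10 were most like each other (r = 0.98). Of 769 named targets outside the 5 members, those most like CXCL9 were ZCCHC12 (r = 0.95), CXCL11 (0.93) and NUS1 (0.93). Those most like CXCL10 were SDF4 (0.97), NUS1 (0.95) and CXCL11 (0.91). CCL5 was followed most closely by KLRD1 (0.98), CGA (0.98) and APOBEC3H (0.96), CCL2 by BHLHE40 (0.95), CD44 (0.93) and DEFB4B (0.90), and CXCL8 by TPH2 (0.92), HBB (0.90) and NXF1 (0.83).

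**Figure D5:**
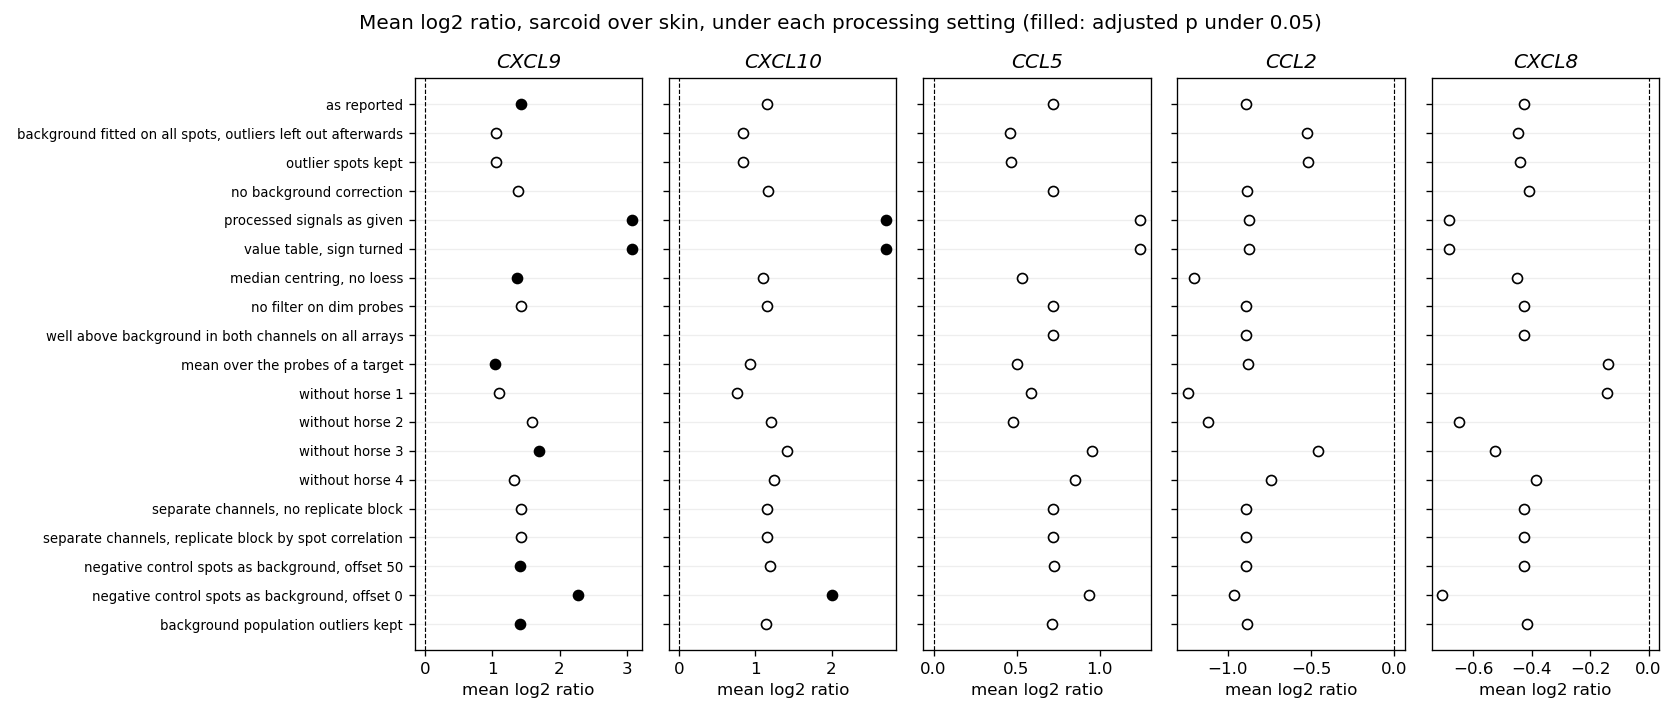
Mean log2 ratio of sarcoid over skin of each chemokine (horizontal axis) under each processing setting (rows); filled points passed an adjusted p under 0.05. CXCL9 and CXCL10 lie above 0 in all 18 settings with a value and are filled in 9 and 3 of them, and CCL5, CCL2 and CXCL8 are open in all 19.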

How the data were processed

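Sarcoid and distant skin RNA of 4 horses (100 ng each) was labelled with Cy3 and Cy5, per the labels. The deposited scanner files hold spot and local background intensity on a linear scale, processed intensity and flags of 0 or 1, per the file headers (Agilent Feature Extraction, version 11.5.1.1). The authors' deposited value table holds the log10 ratio of Cy5 over Cy3, with direction and scale found from the scanner files (largest difference 0; medians 0, -0.00262, -0.0118 and 0 for horses 1 to 4). For 3 samples the description speaks of embryonic stem cells; tissue, dye and horse fields were used instead.

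Spots marked as feature or background outliers were left out, and median signals were corrected with normexp (offset 50), loess-normalized and averaged per probe in limma 3.58.1 (R 4.3.3). Leaving outliers out before the correction was settled with the numbers of calls in both orders known. Probes well above background on at least 3 arrays in either channel were kept, and the brightest probe among those measured on the most arrays stood for a target; this tie rule was settled after CCL2's brightest probe was seen to lack 2 horses. Testing used lmFit and eBayes against a ratio of 0 (two-sided, Benjamini-Hochberg over 19428 targets or 33294 probes) and was tested on simulated data. There 34% of targets given a log2 change of 1 and 69% of those given a change of 2 were called. Of 19228 targets given no change, 3 were called. A difference that did not pass may therefore still exist. The number of arrays limits the precision.

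Through RefSeq accessions 2332 of 43603 probes were named. No coordinates are given, since the array's build differs from the annotation's. Members, lists and tests were chosen with earlier results of these data known. Named are the 5 members, measured receptors, up to 3 called genes of each list or its 2 largest, and the 3 targets most like each member; other genes were named after their values were seen. Sweat gland, B cell and leukocyte lists had 0 measured genes. Alternatives covered background, outliers, normalization, filters, probe choice, channels and each horse left out.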

Additional observations from a re-analysis of the deposited data

Results flagged for a closer look

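The processed signal of CCL2 in the sarcoid of horse 1 was 11439, against 2462, 799 and 2218 in the sarcoids of horses 2, 3 and 4. Its gap to the nearest value was 0.844 of the whole range, beyond the 95% critical value of Dixon's test for 4 values. The test used the linear signal and was not repeated on its logarithm, the scale of the tested differences. The skin of the same horse had 10314, against 2687, 3675 and 5513 in the other horses. Of 15 groups of 4 values tested for the 5 chemokines, 1 was marked, and chance marks about 5% of groups. Without horse 1 the log2 ratio of CCL2 was -1.24 (limma adjusted p = 0.171).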

How the results depend on the processing

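All 5 genes kept the direction of their log2 ratio under every setting tried that gave a value; CXCL9 and CXCL10 had none where both channels had to be well above background on all arrays. The number of targets higher in sarcoid (1097) and lower (1907) was 53 and 116 with the background fitted on all spots, and 94 and 147 with outlier spots kept. It was 1833 higher on the processed signals, 1816 in the authors' table and 562 on median centring. Leaving out 1 horse gave 364 to 783 higher and 1057 to 1388 lower, and on the processed signals 581 to 1533 and 1257 to 1716. Of the calls 36.5% were higher, against 48.1% on the processed signals and 17.8% on median centring, which moved the median of all targets to -0.10.

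CXCL9 no longer passed with outlier spots kept or in the all-spot fit (1.06 in both; limma adjusted p = 0.334 and 0.339), without background correction (1.38; 0.0539), without the filter on dim probes (1.42; 0.0638), or with separate channels and no replicate block (1.42; 0.148) or the replicate block by spot correlation (1.42; 0.0509). Leaving out 1 horse gave 1.09 to 1.69, and 2.64 to 3.49 on the processed signals. CXCL10 passed on the processed signals and in the authors' table (2.72 in both; 0.0188 and 0.0191) and with empty spots as background and no offset (2.01; 0.0241); leaving out 1 horse gave 0.76 to 1.42, and on the processed signals 2.17 (without horse 1) and 2.44 (without horse 2), which did not pass, and 3.15 and 3.11 (without horses 3 and 4), which did. Leaving out 1 horse gave -1.24 to -0.46 for CCL2, 0.48 to 0.95 for CCL5 and -0.65 to -0.14 for CXCL8. The cause of these shifts was not tested.

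Single probes turned sign 20 times, all of CXCL8 and none called. Leaving out 1 horse moved the 4 such probes between -0.41 and 0.16, -0.37 and 0.18, -0.19 and 0.21 (0.02 without horse 4), and -0.22 and 0.23 (-0.05 without horse 3). On the processed signals the first 3 were at 0.77, 0.89 and 0.82 without horse 1 and at 0.0871, 0.26 and 0.11 without horse 4, and the last was at -0.593 without horse 2 and -0.00637 without horse 3. The second was at 0.0512 on the processed signals and in the authors' table. The last was at -0.19 in the all-spot fit and with outliers kept, -0.0132 without background correction and -0.00948 with empty spots as background and the offset. Dim skin signals limit the sizes for CXCL9 and CXCL10.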
